A study of Rattus norvegicus with 6 samples.

Results

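The 10 genes described here are the IL-6 family cytokines Lif, Cntf, Clcf1, Osm, Il6 and Il11, the receptor subunits Il6st, Lifr and Osmr, and the feedback inhibitor Socs3. They were taken by gene symbol from the mRNA table, in which each symbol was found among 30957 genes, and all 10 passed the filter on low counts, as did 15195 genes in total. RNA was sequenced from the sciatic nerve of Sprague-Dawley rats about a month old, in 3 groups of 2 libraries, each from a different rat. The left nerve had been crushed with hemostatic forceps 4 days (D4) or 7 days (D7) earlier, while the control rats are called normal in the labels and are described in the study's methods as operated on without the clamp. No rat carried a transgene, and the nerve was sequenced as whole tissue, so fewer cells of a type and less RNA per cell cannot be told apart.

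The cytokines of this family signal through receptor complexes that share gp130, the product of Il6st. LIF and CNTF recruit gp130 together with the LIF receptor (CNTF also needs CNTFR), oncostatin M uses gp130 with the oncostatin M receptor, and IL-6 and IL-11 each bind a receptor subunit of their own before gp130. The complexes activate JAK kinases and mainly STAT3, and STAT3 induces Socs3, which shuts the signal down again. In peripheral nerve, CNTF is a product of myelinating Schwann cells, and LIF and IL-6 are known as cytokines of the injured nerve.

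Between 18727255 and 25350886 fragments were counted on mRNAs in a library. Markers of Schwann cells were present in every library, with a summed level of 3301 to 4894 normalized CPM (counts scaled to a common library size). The markers of myelinating Schwann cells Mbp, Prx and Pmp22 summed to 39480 CPM in control a and 26030 in control b, to 1068 and 1087 on D4, and to 5351 and 3325 on D7, and all 3 were lower on both days. The 4 markers of injured-nerve Schwann cells (Ngfr, Gap43, Shh and Olig1) summed to 33.48 and 33.58 CPM in control, 1915 and 2043 on D4, and 1135 and 1075 on D7, of which Ngfr alone made up 1864 and 1979 on D4. Ngfr and Shh were called higher on both days, and Gap43 and Olig1 were not. The 6 markers of macrophages and monocytes summed to 180.1 and 154.3 CPM in control, 609.3 and 597.5 on D4, and 391 and 492.5 on D7. Endothelial markers summed to 447.2 and 508.8 CPM in control and to between 164.4 and 281.4 after injury. Adipocyte markers summed to 1037 and 842.1 CPM in control, 238.3 and 118.1 on D4, and 4.132 and 334.2 on D7, and none was called. Skeletal muscle markers differed within groups (41.74 CPM in D4 a, 5.061 in D4 b), and none was called. Of the mast cell markers, Kit was called higher on D4 alone (1.09 on the log2 scale), and Cpa3 and Fcer1a were not called. Fibroblast markers summed to 28000 and 29410 CPM in control, 19520 and 18020 on D4, and 13920 and 15620 on D7, with 1 of 4 (Col1a1) called lower on D7. Col1a1 alone made up 24900 and 26450 CPM of the control sums. The others went both ways on the log2 scale, with Pdgfra at 0.68 and 0.49, Lum at -0.05 and -0.21, and Dcn at -0.56 and -0.59. Neutrophil markers summed to 50.63 and 55.17 CPM in control and to between 16.9 and 30.13 after injury, but 1 of them, Csf3r, was called higher on both days (2.58 and 2.36 on the log2 scale). Mpo, which made up 47.85 and 51.49 CPM of the control sums, was at -2.89 and -2.77 (SE 1.24 each) and was not called. Its D7 libraries were far apart, with 1 count in D7 a and 295 in D7 b. T and B lymphocyte markers stayed below 5 CPM in sum. Of the 2 tested, Cd3e was called higher on both days. Cd3g was called lower on D4 (-2.59, adjusted p = 0.00468) and was not called on D7 (0.22). No marker found in the table was at 0 in all libraries. The part of these changes in cell markers in the results below was not tested.

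A gene was called when its adjusted p-value in edgeR's quasi-likelihood test was under 0.05 and its fold change was at least 2. On D4, 8 of the 10 genes were called, 6 of them higher and 2 lower than in control. Over all genes tested, 11.2% were called higher and 10.7% lower on D4. On D7, 7 genes were called, 5 higher and 2 lower, and over all genes tested 9.83% were called higher and 9.02% lower. The median log2 fold change of the 10 genes was 1.91 on D4 and 1.55 on D7, while that of all genes tested was -0.04 and 0.01. Of all genes called, 51.2% were higher on D4 and 52.1% on D7, and 69.3% and 70.4% when no scaling factors were used. The comparisons of D4 and D7 with control share the same 2 control libraries. The 10 genes were chosen with earlier results of these data known, so their counts beside all genes are a description.

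**Figure D1:**
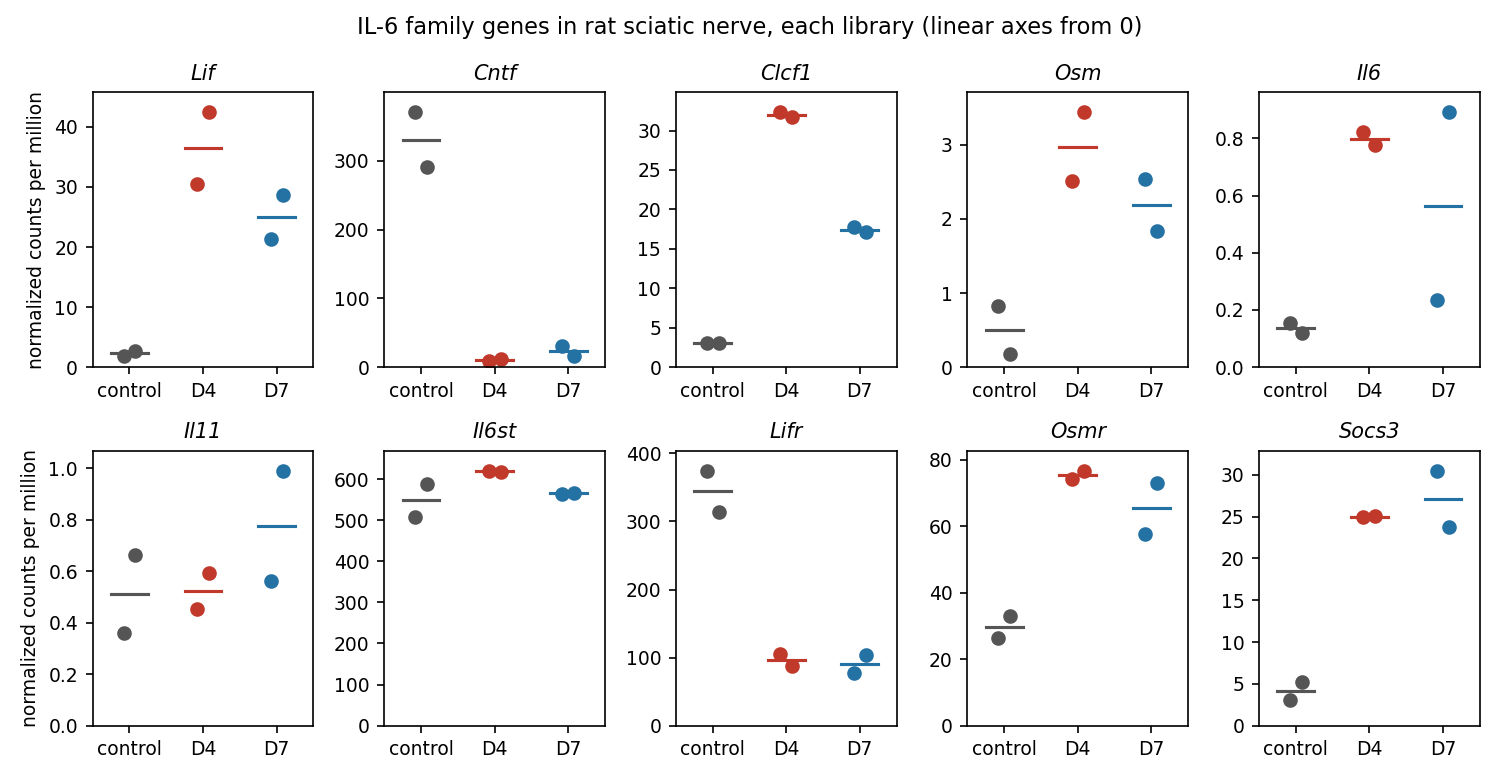
Normalized CPM (vertical axes, linear from 0) of each IL-6 family gene in each library of the control, D4 and D7 groups, with points for libraries and lines for group means. Cntf and Lifr lie lower in all 4 injured libraries than in both controls, and Lif, Clcf1, Osm, Osmr and Socs3 lie higher.

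Cntf, the ligand of the adult myelinating Schwann cell, fell most. It is at chromosome 1:229599009-229601032 (Rnor_6.0). Uninjured nerve gave 7189 and 4822 counts, against 231 and 335 on D4 and 655 and 341 on D7. Both injured groups lay far below control without overlap, at 330.5 CPM in control against 10.93 on D4 and 23.81 on D7. Cntf was 30.2-fold lower on D4 (log2 fold change -4.92, SE 0.34, adjusted p = 0.000243) and 13.9-fold lower on D7 (-3.79, SE 0.32, adjusted p = 0.000686). The difference from D4 to D7, 1.12 on the log2 scale (SE 0.31), did not pass (adjusted p = 0.0944), although both D7 libraries lay above both D4 libraries. It was 0.62 without D7 a (adjusted p = 0.306) and 1.49 without D7 b (adjusted p = 0.0326), and DESeq2 gave 1.09 with an adjusted p of 0.00566. The myelin markers given above were likewise lowest on D4 and intermediate on D7.

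Zfp91, the neighbouring gene 1466 bases away, had 5770 and 4981 counts in control, 4179 and 4586 on D4 and 3577 and 3813 on D7. Its log2 fold changes, -0.81 and -0.75, stayed under the 2-fold threshold. TGANTCA is a loose form of the AP-1 site in which the middle base is left free. The promoter of Cntf is shown because it belongs to the gene with the largest fall among the 10 and holds a TGANTCA match. It covers the 250 bases before the start of transcription in RefSeq (GRCr8, chr1:219314536-219314785, minus strand), and the match, whose first base is 72 bases before the start, is in capitals.
Cntf: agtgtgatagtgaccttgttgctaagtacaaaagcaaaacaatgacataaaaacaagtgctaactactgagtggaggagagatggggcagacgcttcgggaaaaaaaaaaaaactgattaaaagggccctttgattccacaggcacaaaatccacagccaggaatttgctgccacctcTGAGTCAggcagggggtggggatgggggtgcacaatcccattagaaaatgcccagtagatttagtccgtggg

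RefSeq promoters could be matched for 7 of the 10 genes (not for Lif, Clcf1 or Osm). TGANTCA, which reads alike on both strands, was present in 3 of the 7 and in 6.34% of 33469 promoters of the same length. The matches of Il11 and Osmr are shown with 10 bases on each side and the match in capitals, because Il11 was not called on either day and Osmr was called higher on both.
Il11: ggagggagggTGAGTCAggatgtgtca
Osmr: gccccgcagcTGATTCAtagccggggc

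The match of Il11 begins 142 bases and that of Osmr 33 bases before the start that RefSeq gives. TTCNNNGAA, the form of a STAT site, was found on neither strand in the 7 windows and in 7.67% of all promoters. These matches are descriptions of letters in the windows only.

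Lif, a cytokine acting through the LIF receptor and gp130, showed the largest rise among the 10 genes. It lies at chromosome 14:84482674-84500642. Its counts were 37 and 44 in control, 741 and 1148 on D4, and 456 and 580 on D7. All 4 injured libraries were above both controls, and both D4 libraries were above both D7 libraries in CPM (30.41 and 42.41 against 21.41 and 28.70). Lif was 16-fold higher on D4 (log2 fold change 4.00, SE 0.28, adjusted p = 0.000251) and 11-fold higher on D7 (3.46, SE 0.28, adjusted p = 0.000624). The difference of -0.54 between D7 and D4 (interval of 2 SE from -1 to -0.08) did not pass the test (adjusted p = 0.22).

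Clcf1, a ligand that signals through the CNTF receptor, is at chromosome 1:219468675-219472654. It had 59 and 51 counts in control, 787 and 859 on D4 and 378 and 346 on D7. Libraries of a group were close together, and the 3 groups did not overlap. The gene was 10.5-fold higher on D4 (3.39, SE 0.13, adjusted p = 0.000112) and 5.7-fold higher on D7 (2.51, SE 0.12, adjusted p = 0.000245). Between D4 and D7 it differed by -0.88 (SE 0.11, adjusted p = 0.0194), which passes the p-value threshold but not the 2-fold threshold. The difference was -0.86 without D4 a, -0.89 without D4 b and -0.91 without D7 a, where the p-value threshold was not passed.

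Osm, a product mainly of macrophages and other blood-derived cells, sits at chromosome 14:84465515-84470409, 12264 bases from Lif. Its counts were low, with 16 and 3 in control, 61 and 93 on D4, and 54 and 37 on D7. Its controls differed by a larger ratio than the libraries of either injured group, but both lay below all 4 injured libraries. Osm was higher on D4 (2.51, SE 0.61, adjusted p = 0.0182) and on D7 (2.07, SE 0.61, adjusted p = 0.0417). The D4 call was lost without D4 a (adjusted p = 0.0579) or D4 b (0.0951). Its log2 fold change there was 4.00 without control a and 1.84 without control b. The D7 call was lost without any of control b, D4 a, D4 b, D7 a and D7 b, with adjusted p-values from 0.0678 to 0.138, and in 8 of 14 alternatives in all. Its value there was 3.55 without control a and 1.40 without control b. Macrophage markers, all 6 called higher on D4 and 5 on D7, moved in the same direction as Osm. Of the neutrophil markers tested, Csf3r did so too, while Mpo was at -2.89 and -2.77 (SE 1.24 each) and was not called.

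Il6 (chromosome 4:3043231-3047807) was near the limit of the depth. It had 3 and 2 counts in control, 20 and 21 on D4, and 5 and 18 on D7. Both D4 libraries were clearly above the controls, whereas D7 a was only just above them. The D4 difference was called (2.48, SE 0.79, adjusted p = 0.0461), and the ratio of the pooled counts was 5.74 with a 95% interval for counting error of 2.27 to 18.6. It was not called with DESeq2 (adjusted p = 0.0568) or after leaving out control a, control b, D4 a or D4 b (0.135 to 0.156), and the call was lost in 9 of 14 alternatives in all. On D7 the difference was 1.97 (SE 0.83) and did not pass (adjusted p = 0.11). Without D7 a it was 2.66 and was called (adjusted p = 0.0444), and without D7 b it was 0.74.

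Il11 (chromosome 1:72635267-72643255), which acts through IL11RA and gp130, stayed at 7 to 20 counts in every library. The libraries of the 3 groups overlapped. Its log2 fold changes were 0.05 on D4 (interval of 2 SE from -1.06 to 1.15) and 0.61 on D7 (-0.49 to 1.7), so a 2-fold change in either direction on D4 could not be told from no change at this depth.

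**Figure D2:**
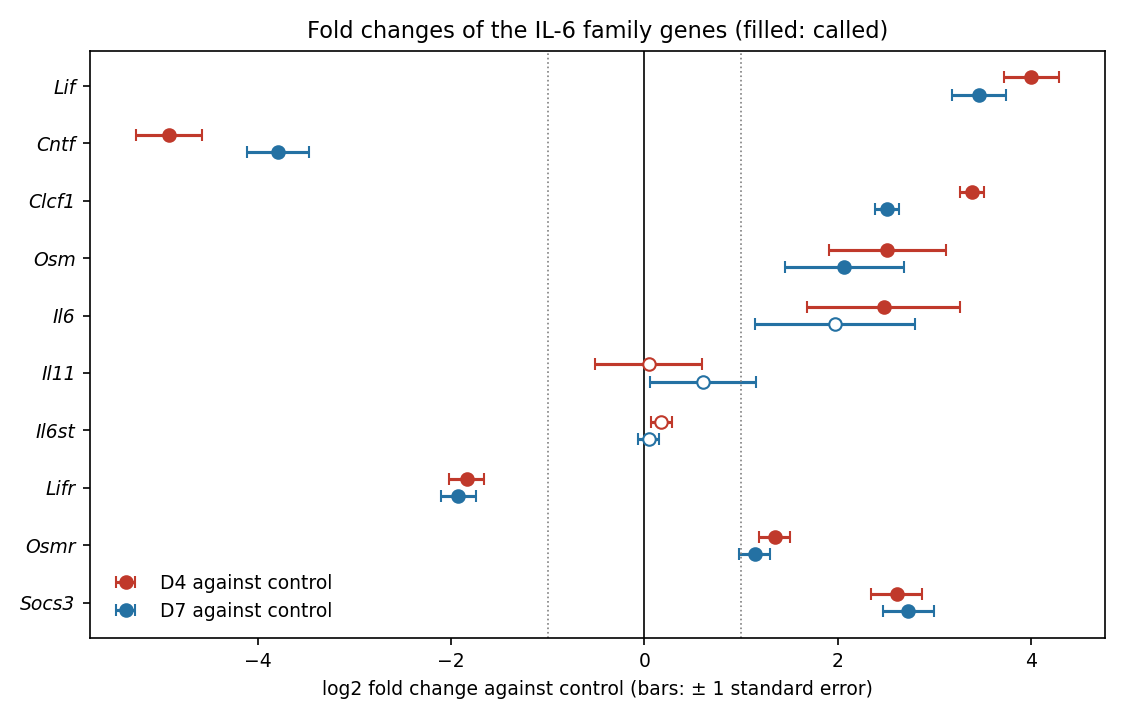
Log2 fold change (horizontal axis) of each gene on D4 and D7 against control, with bars of 1 standard error, dotted lines at 2-fold and filled points for called genes. The points reach from -4.92 for Cntf to 4.00 for Lif, while those of Il6st lie at 0.18 and 0.04.

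Of the receptor subunits, Lifr was called lower and Osmr higher on both days, while Il6st, the shared signal transducer, was not called. Il6st (chromosome 2:44289393-44314944) had 9851 and 9768 counts in control, 15107 and 16741 on D4, and 11988 and 11468 on D7. After normalization this came to 548.2, 619.3 and 565.1 CPM as group means. Its log2 fold change was 0.18 on D4 (interval of 2 SE from -0.04 to 0.39, adjusted p = 0.222) and 0.04 on D7 (-0.17 to 0.26, adjusted p = 0.768), so these intervals do not reach 2-fold.

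Lifr, the receptor subunit for LIF, CNTF and CLCF1 complexes, is at chromosome 2:56426367-56489415. It had 7268 and 5207 counts in control, 2548 and 2371 on D4, and 1653 and 2086 on D7. All injured libraries were below both controls, and the D4 and D7 libraries overlapped in CPM. Lifr was 3.58-fold lower on D4 (-1.84, SE 0.18, adjusted p = 0.000673) and 3.81-fold lower on D7 (-1.93, SE 0.18, adjusted p = 0.000901). Its difference from D4 to D7 was -0.09 (interval of 2 SE from -0.44 to 0.26).

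Osmr, the subunit that pairs with gp130 for oncostatin M and with IL31RA for IL-31, lies 274835 bases from Lifr at chromosome 2:56110777-56151531. Its counts were 510 and 548 in control, 1810 and 2073 on D4, and 1227 and 1477 on D7. It was 2.55-fold higher on D4 (1.35, SE 0.16, adjusted p = 0.0014) and 2.2-fold higher on D7 (1.14, SE 0.16, adjusted p = 0.00343). On D7 its fold change fell below the threshold, to 0.98 without control a and 0.96 without D7 b, with adjusted p-values still under the limit (0.0136 and 0.0115).

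Socs3, the STAT3-induced inhibitor that binds gp130 and blocks JAK activity, is at chromosome 10:106975178-106976040, where the deposited gene model spans 863 bases. It had 59 and 86 counts in control, 608 and 678 on D4, and 649 and 481 on D7. Both injured groups were above control and overlapped each other. Socs3 was 6.12-fold higher on D4 (2.61, SE 0.26, adjusted p = 0.000759) and 6.64-fold higher on D7 (2.73, SE 0.27, adjusted p = 0.000985).

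None of the 10 genes was called between D7 and D4 with edgeR, against 1.68% of all genes called higher and 0.494% called lower. At an unadjusted p under 0.05 there were 2 (Clcf1 and Cntf), where 24.7% of all genes passed that limit, and DESeq2 called 1, Cntf.

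Levels of different genes were compared per length, as deposited FPKM. In control, Cntf was the most abundant of the 10 at 292.1 and 235.1 FPKM, followed by Il6st (140.7 and 167.4), Lifr (59.96 and 51.54), Osmr (6.886 and 8.878), Socs3 (3.039 and 5.314), Clcf1 (1.162 and 1.205) and Lif (0.7388 and 1.054). Neighbours in that order did not overlap. Osm, Il11 and Il6 were all below 0.3 FPKM, where Osm overlapped both of the others. On D4, Il6st led at 212.4 and 212.2 FPKM, and Socs3 came next at 30.82 and 30.99. Cntf, at 9.237 and 12.08 FPKM, was now below Lif (14.56 and 20.34) and Clcf1 (15.25 and 15.01), and Lif overlapped both Lifr and Clcf1. On D7, Cntf had 29.91 and 16.64 FPKM and overlapped Socs3, Osmr and Lifr, while Lif had 10.23 and 13.91 and Clcf1 8.366 and 8.186.

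The make-up of the ligand transcripts differed between the groups. Cntf made up 99.2% and 98.9% of the summed FPKM of the 6 ligands in uninjured nerve, 22.5% and 24.2% on D4, and 59.8% and 40.7% on D7. Lif went from 0.251% and 0.443% of the sum to 35.5% and 40.8% on D4 and was at 20.5% and 34.1% on D7. Clcf1 went from 0.395% and 0.507% to 37.1% and 30.1% and then to 16.7% and 20.0%. The summed ligand level was 295 and 238 FPKM in control, 41.1 and 49.8 on D4, and 50.0 and 40.9 on D7. Among the 3 receptor subunits, Lifr exceeded Osmr by 8.71 and 5.81 times in control, whereas Osmr exceeded Lifr by 1.16 and 1.43 times on D4 and by 1.21 and 1.16 times on D7. These shares are descriptions without a test.

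**Figure D3:**
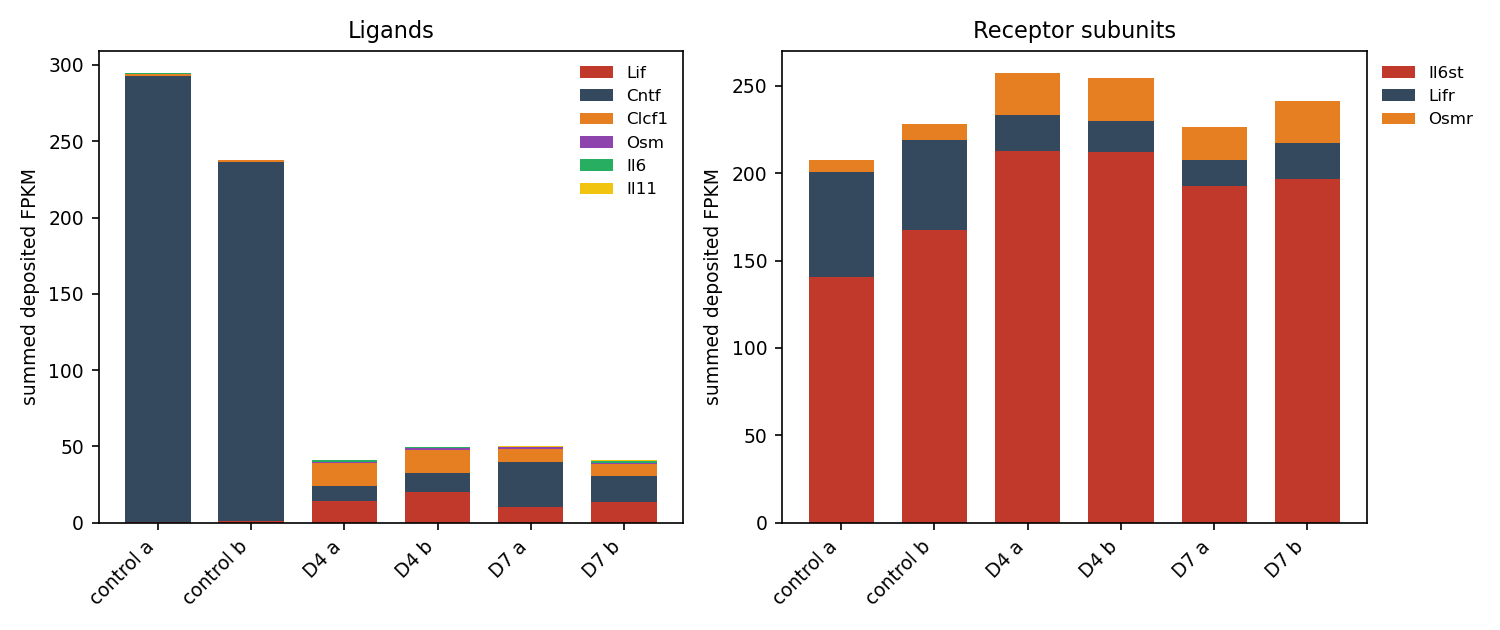
Deposited FPKM (vertical axes, linear from 0) of the 6 ligands (left) and the 3 receptor subunits (right), stacked in each of the 6 libraries. Scaling factors were not applied, so bar heights of different groups are not on one scale. Cntf fills 99.2% and 98.9% of the ligand bars in control and 22.5% and 24.2% on D4, while Il6st is the largest part of every receptor bar.

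Of the partner receptors and further ligands of the family, 7 of 10 listed genes were tested, and 1 was called higher and 1 lower on each day (median log2 fold change -0.92 on D4 and -0.86 on D7), which is near the shares of all genes called. Cntfr, the receptor subunit that binds CNTF, had 715 and 412 counts in control and was lower at 276 and 282 on D4 and 210 and 227 on D7 (-1.51, SE 0.21, adjusted p = 0.00244, and -1.55, SE 0.21, adjusted p = 0.00305). Ebi3, the beta subunit of IL-27, rose from 18 and 21 counts to 189 and 153 on D4 and 84 and 67 on D7 (2.61, SE 0.31, and 1.73, SE 0.31). The receptor subunits Il6r, Il11ra1, Il27ra and Il31ra and the ligand Ctf1 were not called on either day in the main edgeR fit. On D7, DESeq2 called 3 of the 7 genes, 2 of them lower. So did edgeR with only the 4 libraries compared, and with the library letter as a replicate block. Without control b, 4 of the 7 genes were called on D7, 3 of them lower.

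None of the 11 JAK-STAT signalling proteins listed was called on either day with edgeR or DESeq2. At an unadjusted p under 0.05 there were 8 on D4 and 7 on D7, all with changes of less than 2-fold, where 53.2% and 48.4% of all genes tested passed that limit. Stat3, for example, had 3772 and 3559 counts in control, 7212 and 8132 on D4 and 7355 and 6558 on D7, with log2 fold changes of 0.54 (SE 0.10, adjusted p = 0.00579) and 0.71 (SE 0.10, adjusted p = 0.00288). Without scaling factors, 1 of the 11 was called on D7.

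Of the 14 further inhibitors, phosphatases and sheddases, 2 were called higher on D4 and 4 on D7, and none lower, against 11.2% and 9.83% of all genes called higher, so the D4 count is near that share. Socs2, another SOCS family inhibitor, rose from 202 and 142 counts to 848 and 1039 on D4 and 699 and 787 on D7 (1.95 and 1.92, SE 0.15 each). Ptpn6, a phosphatase of blood cells also known as SHP-1, rose by 1.83 (SE 0.17) and 1.31 (SE 0.17), in the same direction as the macrophage markers. Socs5 was called on D7 alone (1.24, SE 0.14), its D4 value being 0.88 (SE 0.14). The sheddase Adam10 was lower by less than 2-fold and not called (-0.675, SE 0.11, adjusted p = 0.00379 on D4, and -0.72, SE 0.11, adjusted p = 0.00384 on D7). Adam17, a protease that sheds the IL-6 receptor, had 2411 and 2477 counts in control, 3869 and 4110 on D4, and 8197 and 6174 on D7. It was called on D7 against control (1.34, SE 0.15, adjusted p = 0.00152) and against D4 (1.15, SE 0.15, adjusted p = 0.0215). The latter was not called without D4 a (1.18), D4 b (1.12) or D7 a (0.97), nor in edgeR's glmTreat test against a 1.5-fold change. For this comparison no gene of the whole table was called without D4 a or D4 b, and 99 were without D7 a, against 331 with all libraries, so a call lost there says little of a single gene. On D4 the count called was 5 without scaling factors and 4 in a joint fit with lncRNAs.

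Of the STAT3-responsive and injury response genes, 16 of 19 listed were tested. On D4, 9 were called higher, and 8 on D7 (median log2 fold change 1.69 and 1.12), where 11.2% and 9.83% of all genes were called higher. The list was chosen with earlier results of these data known, so these counts are a description and not a test. Birc5, a survival and cell division protein, rose from 10 and 14 counts to 447 and 671 on D4 and 316 and 296 on D7 (5.0, SE 0.28, and 4.45, SE 0.28). Atf3, a transcription factor induced by nerve injury, rose from 47 and 21 counts to 947 and 944 and then stood at 348 and 281 (4.30, SE 0.28, and 3.01, SE 0.28). Atf3 was lower on D7 than on D4 (-1.29, SE 0.23, adjusted p = 0.0411). In fits without D4 a, D4 b, D7 a or D7 b it was not called, at -1.21, -1.36, -1.42 and -1.17, nor was it in the joint fit with lncRNAs (-1.36, adjusted p = 0.0838) or in glmTreat against 1.5-fold. The cyclin gene Ccnd1 rose by 3.63 and 2.77, the immediate early gene Fos by 3.12 and 2.39, and the kinase gene Pim1 by 2.27 and 1.56. Cebpb, a transcription factor of the acute phase response, was called on D4 alone (1.96, SE 0.30), its D7 value being 0.69 (SE 0.30). Of those not called, Lcn2, an acute phase gene, had 194 and 281 counts in control, 183 and 150 on D4 and 82 and 159 on D7, with log2 fold changes of -1.04 (adjusted p = 0.0841) and -1.20 (adjusted p = 0.066), and DESeq2 called it lower on D7 (-1.22, adjusted p = 0.0214). Lcn2 was also called lower on D7 without control a (-1.53, adjusted p = 0.0478) or D7 b (-1.80, adjusted p = 0.0308), and on D4 without D7 b (-1.04, adjusted p = 0.0474), while on D7 it was -0.77 without control b and -0.74 without D7 a. Bcl2l1, a survival gene, was at -0.39 and -0.83. Many of these genes also respond to other pathways, and which signal acted on them was not tested.

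**Figure D4:**
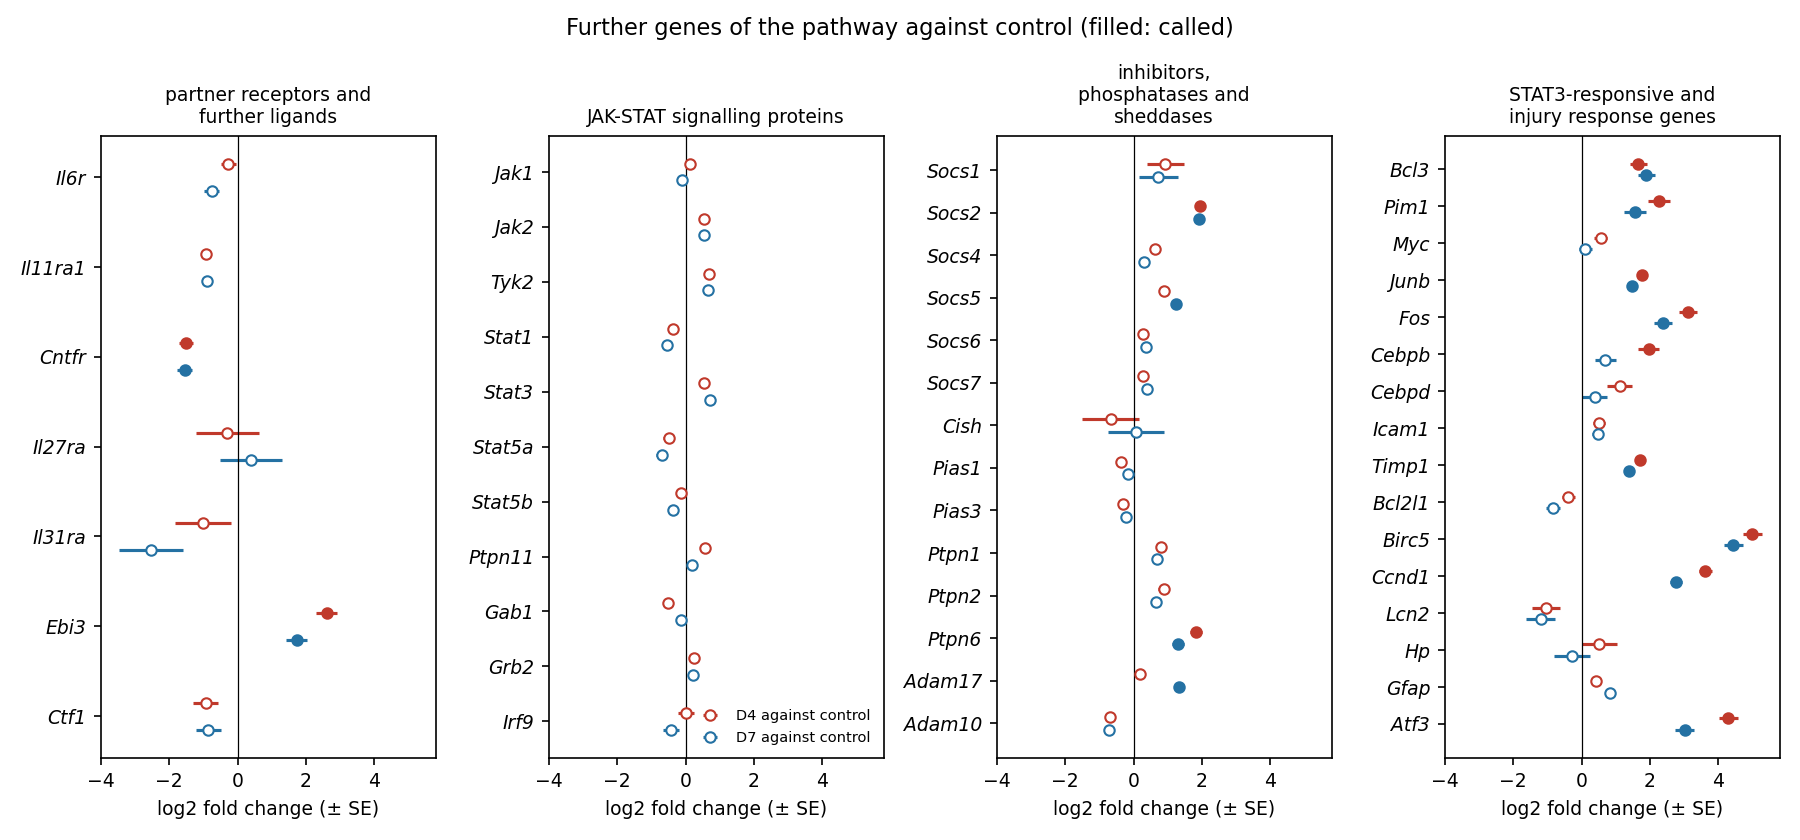
Log2 fold change (horizontal axes) with 1 standard error on D4 and D7 against control, for the tested genes of 4 lists of the pathway, with filled points for called genes. All called genes of the inhibitor list (2 on D4, 4 on D7) lie to the right of 0. So do those of the list of STAT3-responsive and injury response genes (9 and 8), and no JAK-STAT gene is filled.

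Within 10 kb of the 10 genes lay 14 annotated lncRNAs, of which 10 were tested. On each day 2 were called higher and 1 lower, where over all lncRNAs tested 5.19% were called higher and 4.87% lower on D4, and 3.00% and 2.79% on D7. NONRATT009530.2 (chromosome 14:84501195-84502293), 552 bases from Lif, had 28 and 33 counts in control, 531 and 709 on D4, and 370 and 411 on D7. It rose by 4.17 (SE 0.24, adjusted p = 0.00239) and 3.57 (SE 0.24, adjusted p = 0.00362), beside 4.00 and 3.46 for Lif. NONRATT006315.2 (chromosome 10:106973849-106974402), 775 bases from Socs3, went from 49 and 57 counts to 291 and 386 on D4 and 315 and 333 on D7. It rose by 2.5 (SE 0.22, adjusted p = 0.00457) and 2.51 (SE 0.22, adjusted p = 0.00693), beside 2.61 and 2.73 for Socs3. NONRATT015073.2 (chromosome 2:56490995-56493956), 1579 bases from Lifr, had 4230 and 3543 counts in control, 1336 and 1056 on D4 and 788 and 1129 on D7, log2 fold changes of -1.85 (SE 0.26, adjusted p = 0.0134) and -2.11 (SE 0.26, adjusted p = 0.0143), beside -1.84 and -1.93 for Lifr.

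The D4 call of NONRATT015073.2 was lost without control a, D4 a or D4 b, and its D7 call without control a, control b or D7 a, with adjusted p-values of at most 0.0869 and 0.0605. Over all alternatives its log2 fold change ran from -2.12 to -1.64 on D4 and from -2.40 to -1.87 on D7. NONRATT015019.2, which overlaps Il6st, had 115 and 194 counts in control, 346 and 1134 on D4 and 237 and 498 on D7, and was not called with edgeR (2.04, adjusted p = 0.114 on D4), whereas DESeq2 called it on D4 (2.01, adjusted p = 0.0155). Its D4 value was 2.61 without D4 a and 1.04 without D4 b. Whether fragments were counted by strand was not stated, and whether such a lncRNA is a transcript apart from its neighbour was not tested.

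**Figure D5:**
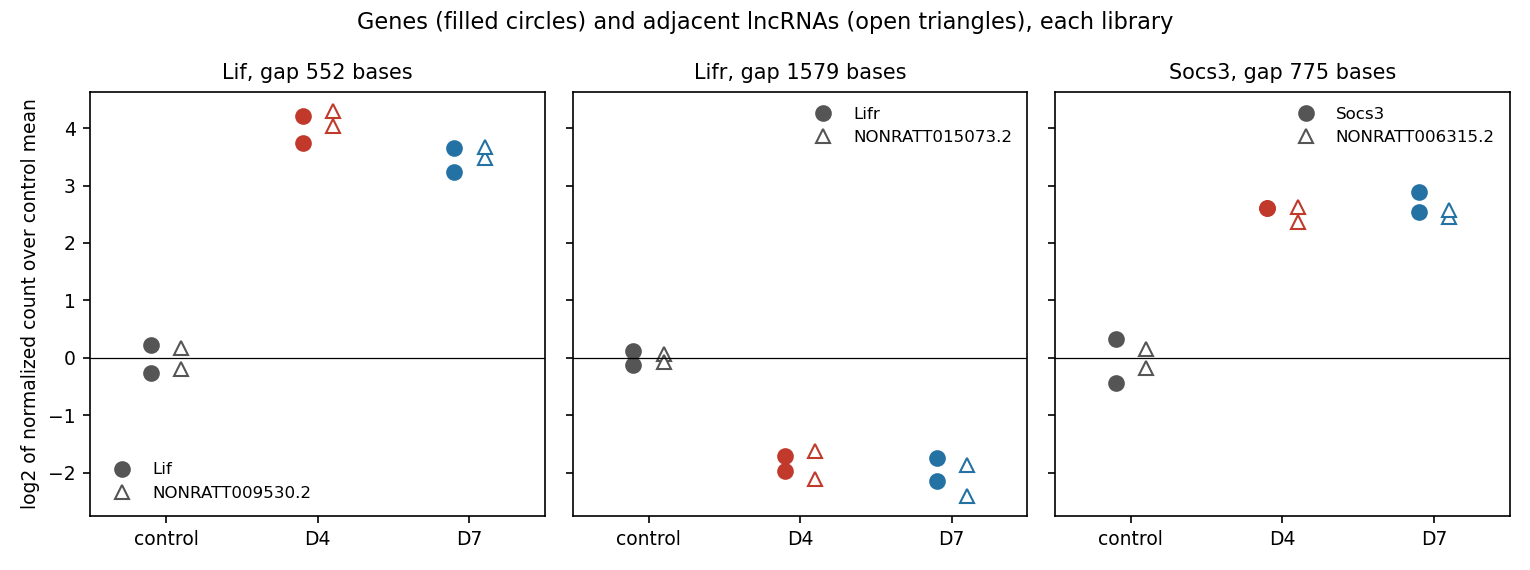
Log2 of the normalized count over the control mean (vertical axis) for Lif, Lifr and Socs3 (filled circles) and the called lncRNA beside each (open triangles), in each library. Gene and lncRNA lie on the same side of 0 in all 4 injured libraries of each panel.

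Profiles over the 6 libraries were compared as the root mean square difference of log2 CPM from the control mean, as a description. Among the 10 genes, Il11 and Il6st (0.39) and Clcf1 and Socs3 (0.5) were closest, and Lif and Cntf (6.62) were farthest apart. Of all genes tested, Hist1h2ao (0.16), Mis18a (0.17) and Ns5atp9 (0.17) were nearest to Lif. Hmgcs1, an enzyme of cholesterol synthesis, was nearest to Cntf (0.16), with 73705 and 49592 counts in control, 2495 and 2938 on D4 and 7062 and 4343 on D7, followed by Pbld1 (0.23) and Csmd1 (0.25). Nearest to Osmr were Slbp (0.06), Rassf5 (0.07) and Tlr8 (0.08).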

How the data were processed

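Sciatic nerve RNA of 6 rats, 2 in each of 3 groups, was measured by paired-end sequencing after removal of ribosomal RNA. The authors aligned reads with HISAT2 2.0.4 to the rat genome of Ensembl (Rnor_6.0), assembled and counted fragments with StringTie 1.3.0, and deposited whole-number counts per gene and per lncRNA transcript. The FPKM values were also deposited by the authors. They were used to compare levels between genes, and for the shares, sums and ratios of ligands and receptors. They follow the total mRNA counts of each library and carry no TMM factors. Strand use in counting is not given in the sources used here.

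Counts were tested with edgeR 4.0.16 in R 4.3.3: filterByExpr, TMM factors, and the quasi-likelihood fit of all 6 libraries, with Benjamini-Hochberg adjustment over all features of a table. Of 22721 lncRNAs, 14077 were tested. The standard error is the absolute log2 fold change over the square root of F. The p-values measure the spread between these rats alone. The procedure was tested on simulated data. Counting intervals cover counting error only. Profiles used a prior count of 2. DESeq2 1.42.0 and other settings were alternatives. Promoters were searched with Python 3.11.15.

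The members and lists were chosen with earlier results of these data known. All 10 members were named, with up to 6 called genes of each list by largest fold change, called lncRNAs within 10 kb, and the 3 nearest profiles of Lif, Cntf and Osmr. Other genes named (Zfp91, Stat3, uncalled genes of a list such as Lcn2 and NONRATT015019.2) were chosen after their values were seen. Mcl1 was not found by symbol. Some listed genes are not reported here.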

Additional observations from a re-analysis of the deposited data

How the results depend on the processing

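With 2 rats per group, small changes and genes of few counts such as Il6, Osm and Il11 are measured poorly. Clcf1, Cntf, Lif, Lifr and Socs3 kept their calls and directions against control in all alternatives run at both days (15 fits for each gene and day). Over all alternatives, 408 values of the 10 genes kept their direction and side of the threshold, 21 lost and 4 gained a call, and 7 changed sign. Without scaling factors the median log2 fold change of all genes tested moved from -0.04 to 0.25 on D4 and from 0.01 to 0.31 on D7, and no sign changed among the 10 genes. Il6, Osm and Il11 had no value when at least 10 counts were required in every library, nor had Il6 on D7 in the fit of 4 libraries. The count called between D7 and D4 was 0, but 1 with DESeq2, 1 with no fold threshold and 0 to 1 when a library was left out, where the fits without D4 a or D4 b called no gene of the whole table and so show nothing of stability. Every change of sign came from leaving out a library. Leave-one-out values ran from -0.34 (without control a) to 0.53 for Il11 on D4, with -0.16 without D4 b, and Il6st on D7 reached -0.06 without control a. Between D7 and D4 they ran from -1.74 to 0.15 for Il6, from -0.31 to 0.09 for Lifr (0.04 without D4 a) and from -0.08 to 0.28 for Socs3, the sign changing without D7 a. None of the values with a changed sign was called, and the cause was not tested.

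Libraries of the same letter are different rats, and their deviations correlated at 0.01 (control and D4), 0.20 (control and D7) and -0.13 (D4 and D7), so the letters do not pair them. With the letter as a replicate block, 7 genes were called on D4, 6 on D7 and 0 between the days, and the lncRNA NONRATT015019.2 was called on D4 (1.91, adjusted p = 0.0253). With the D4 letters exchanged, an alternative chosen after seeing the data, the block gave 7, 7 and 1 calls.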
